A study of Mus musculus with 18 samples.

Results

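The 4 adult hemoglobin genes Hba-a1, Hba-a2, Hbb-bs and Hbb-bt, together with the erythroid genes Alas2 and Slc4a1, were followed through mouse fibroblasts that had been placed under the kidney capsule or kept in culture. They were taken by name, 6 genes of 38924 in the count table. Bulk RNA was sequenced from 18 libraries in 6 groups of 3. Donors were described as male Rosa mT/mG mice on a C57BL/6 background aged 10 weeks, a strain that carries the red fluorescent protein TdTomato in every cell. Fibroblasts of heart, kidney or tail were first cultured for 10 days. In the transplanted groups HFs (heart), KFs (kidney) and TFs (tail) the cells were carried on gelatin foam into a pocket below the kidney capsule, in syngeneic recipients (C57BL6/J) aged 10 to 11 weeks. After 3 days they were recovered from the dissected kidney by sorting live CD45-;TdTomato+ cells. The control groups HFc, KFc and TFc were leftover cells of the same isolations, plated again for culture. Pooling of donors or recipients and a sort of the cultured controls are not given in the sources used here, and p-values below measure only the spread between these libraries.

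Hemoglobin carries oxygen in red cells as a tetramer of alpha chains, from Hba-a1 and Hba-a2, and beta chains, from Hbb-bs and Hbb-bt in the C57BL strains. Its heme begins with the reaction catalysed by the erythroid 5-aminolevulinate synthase, the product of Alas2, whereas other cells use the housekeeping enzyme Alas1. Slc4a1 encodes band 3, the chloride and bicarbonate exchanger that anchors the red cell membrane to its skeleton, and a shorter form of the same protein sits in acid-secreting intercalated cells of the kidney collecting duct. Young red cells still hold hemoglobin mRNA after losing their nucleus.

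The genes lie at 4 places in the genome (GRCm38, GENCODE M21). Hba-a1 (ENSMUSG00000069919) is at chr11:32283511-32284465 and Hba-a2 (ENSMUSG00000069917) at chr11:32296489-32297298, both on the plus strand. Hbb-bs (ENSMUSG00000052305) is at chr7:103826534-103828096 and Hbb-bt (ENSMUSG00000073940) at chr7:103812524-103813996, both on the minus strand. Alas2 (ENSMUSG00000025270) is at chrX:150547375-150570638 on the plus strand, and Slc4a1 (ENSMUSG00000006574) at chr11:102348824-102366203 on the minus strand.

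The copies of each chain could hardly be told apart by single reads of 75 bases, which is why chains are also given as sums. The GENCODE M21 coding sequences of the alpha pair, 429 bases each, differ at 1 base (C381T, Hba-a1 first, counted from the A of the start codon). Those of the beta pair, 444 bases each, also differ at 1 base (C417T, Hbb-bs first). The stretches around these bases are shown with the differing base in capitals, bases 351 to 410 for the alpha genes and 385 to 444 for the beta genes.
Hba-a1: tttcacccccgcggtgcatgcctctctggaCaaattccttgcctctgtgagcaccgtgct
Hba-a2: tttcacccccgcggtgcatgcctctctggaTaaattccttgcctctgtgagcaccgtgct
Hbb-bs: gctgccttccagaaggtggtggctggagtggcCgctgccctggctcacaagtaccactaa
Hbb-bt: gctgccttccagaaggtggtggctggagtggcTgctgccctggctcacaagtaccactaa
Of all windows of 75 bases in the longest GENCODE M21 coding transcripts, 62.2% in Hba-a1 and 81% in Hba-a2 were shared with the other alpha gene. In the beta pair 64.3% of the windows of Hbb-bs and 56.6% of those of Hbb-bt were shared, and Alas2 and Slc4a1 shared none with another transcript.

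The promoters of the members that moved together are shown for the 110 bases before the RefSeq start (GRCm38.p6), with the searched motifs in capitals. The motifs were the CCAAT box (CCAAT), the TATA box (TATAA), the CACCC box of erythroid Krüppel-like factors (CACCC) and the GATA factor motif (GATAA), each searched on both strands. Capitals on the reverse strand show the reverse complement. RefSeq sequence was at hand for 5 of the 6 members. The GENCODE genes begin before the RefSeq start, so part or all of a window can fall inside the GENCODE gene.
Hba-a2 (chr11:32296382-32296491, plus strand): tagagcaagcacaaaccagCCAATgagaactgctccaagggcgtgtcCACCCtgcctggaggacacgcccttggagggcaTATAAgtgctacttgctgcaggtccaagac
Hbb-bs (chr7:103827929-103828038, minus strand): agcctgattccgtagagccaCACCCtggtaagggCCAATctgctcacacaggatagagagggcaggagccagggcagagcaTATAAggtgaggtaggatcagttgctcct
Hbb-bt (chr7:103813924-103814033, minus strand): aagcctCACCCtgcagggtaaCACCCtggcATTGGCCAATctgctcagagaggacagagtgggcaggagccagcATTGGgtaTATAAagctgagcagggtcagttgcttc
Alas2 (chrX:150547307-150547416, plus strand): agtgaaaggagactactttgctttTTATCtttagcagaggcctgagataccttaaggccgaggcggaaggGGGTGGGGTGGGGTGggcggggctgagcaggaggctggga
The upstream sequence of Hba-a1 is identical to that of Hba-a2 over 247 aligned bases. All 4 hemoglobin genes held the CCAAT box, the CACCC box and the TATA box in this window, a set found in 0.554% of 32851 promoters (182). Taken singly, the CCAAT box stood in 20.2%, the TATA box in 10.9% and the CACCC box in 29.6% of the promoters. Alas2 held 3 CACCC matches, side by side on the opposite strand, and 1 GATAA match, a motif in 9.43% of promoters. These matches are a description of the letters and say nothing of binding.

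Depth ran from 17927838 to 32245168 counts per library. The 10 fibroblast markers summed to 30138 to 161590 CPM in transplanted and 22144 to 44021 CPM in cultured libraries, and 12 of 12 proximal tubule markers were detected in each transplanted library. KFs 3 stood apart from the other 17 libraries: its summed Y-linked genes were at 0.722 CPM (counts-per-million, on TMM-scaled totals) against 175 to 230 CPM, and Xist was at 1492 CPM against at most 0.404 CPM, although donors were described as male. Calls, bounds and between-organ differences of the members that rest on KFs 3 are therefore given with and without it, and list counts also without HFs 2, the library highest in proximal tubule markers, in heart.

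Erythroid transcripts were read in the transplanted libraries and in none of the cultured ones. All 9 cultured libraries held 0 counts of all 6 genes, which allows up to 0.089 to 0.147 CPM in a library (3 counts). The 9 transplanted libraries together held 2284 counts of the 4 hemoglobin genes, 154 of Alas2 and 111 of Slc4a1. HFs 1 and HFs 3 alone gave 1649 of the hemoglobin counts, 72.2%. All intervals and floors cover counting error only. Bulk RNA does not tell which cells carried these transcripts, and fewer such cells and less RNA per cell cannot be told apart. The source of the counts was not tested.

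**Figure D1:**
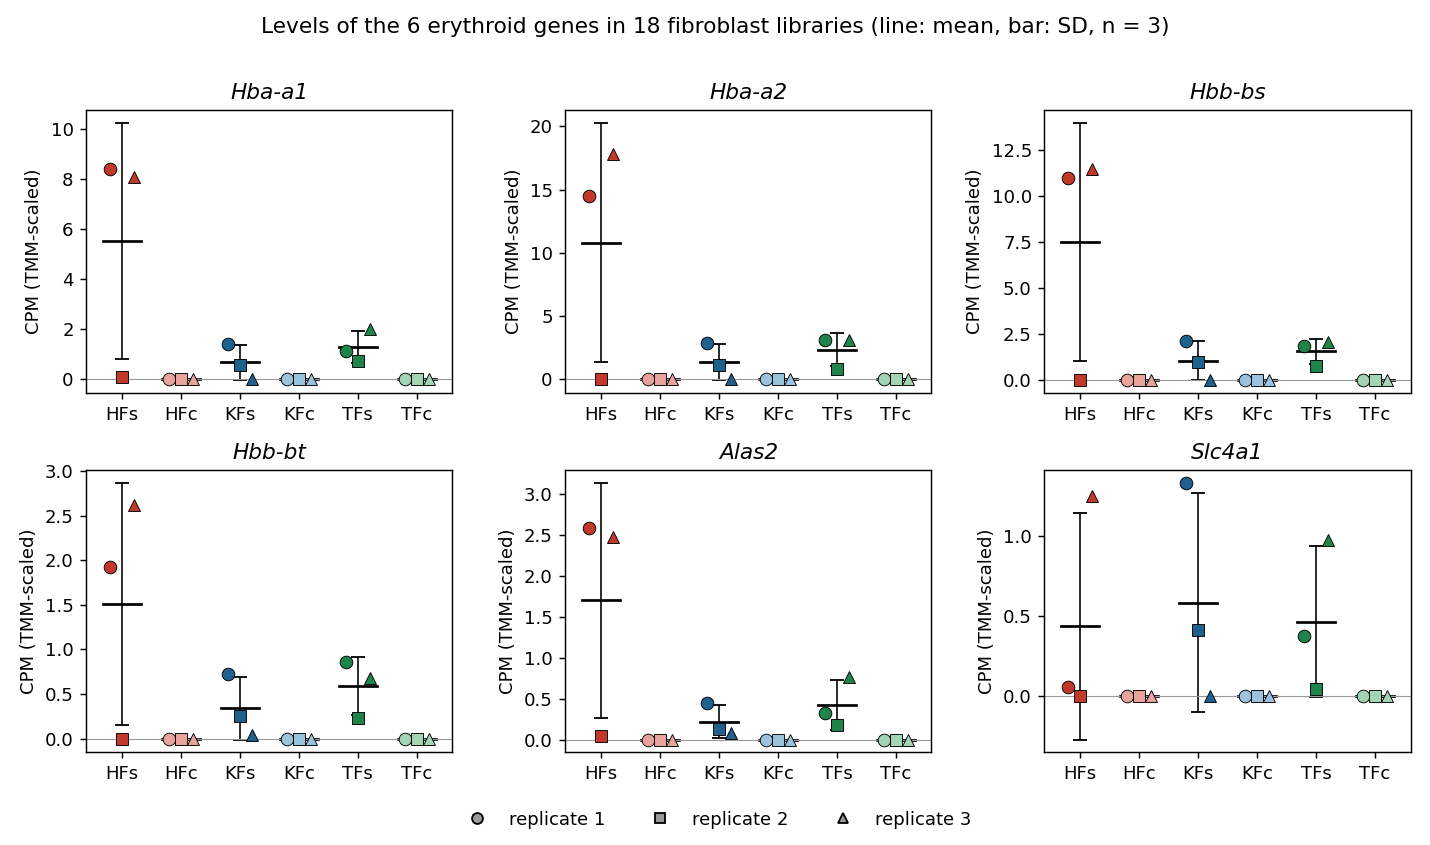
CPM (vertical axis, scaled by TMM, own scale per gene) of each of the 6 genes in the 18 libraries, by group on the horizontal axis, with lines for the group mean and bars for the SD (n = 3). All 9 cultured libraries lie at 0, HFs 1 and HFs 3 lie highest for the hemoglobin genes and Alas2, and HFs 2 and KFs 3 lie at or near 0.

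Hba-a2, an alpha chain gene and the most abundant member per length, reached 14.5, 0 and 17.8 CPM in HFs 1, 2 and 3 (241, 0 and 470 counts). In KFs it stood at 2.83, 1.12 and 0 CPM, and in TFs at 3.10, 0.772 and 3.05 CPM. Hence HFs held both the highest values and a library at 0, so that HFs overlapped with every other group.
Hba-a1, its near copy, followed the same libraries with 8.42, 0.0881 and 8.09 CPM in HFs, 1.41, 0.577 and 0 CPM in KFs and 1.12, 0.727 and 1.99 CPM in TFs. For beta chains, Hbb-bs reached 10.9, 0 and 11.5 CPM in HFs, 2.10, 0.962 and 0 CPM in KFs and 1.82, 0.727 and 2.04 CPM in TFs. Hbb-bt was the lowest of the 4, with 1.92, 0 and 2.62 CPM in HFs, 0.728, 0.256 and 0.0401 CPM in KFs and 0.856, 0.227 and 0.679 CPM in TFs.
Within each of the 7 libraries with more than 3 counts of both chains, the order per kilobase of exon was Hba-a2, Hbb-bs, Hba-a1 and Hbb-bt. The means in HFs were 16.2 ± 14.2, 9.73 ± 8.43, 6.81 ± 5.81 and 2.15 ± 1.93 CPM per kilobase (SD, n = 3). Means of neighbours lay within 1 SD of each other, an SD that holds the differences in hemoglobin level between libraries, whereas the order itself was found in all 7, and the split within each chain carries the uncertainty of shared reads.

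Alas2, the heme synthesis gene of red cells, stood at 2.59, 0.0441 and 2.47 CPM in HFs, 0.445, 0.128 and 0.0802 CPM in KFs and 0.321, 0.182 and 0.763 CPM in TFs. It was the member with counts in all 9 transplanted libraries, though only 1 in HFs 2 and 2 in KFs 3. Slc4a1 followed another pattern, with 0.0601, 0 and 1.25 CPM in HFs, 1.33, 0.417 and 0 CPM in KFs and 0.375, 0.0454 and 0.975 CPM in TFs. HFs 1, second highest of all libraries for hemoglobin, held 1 count of Slc4a1, while KFs 1, at 7.07 CPM of hemoglobin against 35.8 CPM, held 33.

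To ask what transplantation did to these genes, each transplanted group was compared with its cultured control. Against a control at 0 a fold is only a lower bound, computed against 3 counts per cultured library. The summed hemoglobin level in HFs was 25.3 ± 21.9 CPM (SD, n = 3), at least 212-fold higher than in HFc. It was 3.34 ± 3.54 CPM in KFs, at least 31.7-fold higher than in KFc (46.1-fold without KFs 3), and 5.71 ± 2.85 CPM in TFs, at least 50.6-fold higher than in TFc. For Alas2 the bounds were at least 14.2-fold, 2.06-fold and 3.74-fold in heart, kidney and tail, and 2.64-fold in kidney without KFs 3. For Slc4a1 they were at least 3.67-fold, 5.54-fold and 4.13-fold, and 8.07-fold in kidney without KFs 3. Without HFs 3 the Slc4a1 mean of HFs was 0.0305 CPM, under the floor, so that no bound was left in heart. These bounds do not rank the organs.

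The members passed the filter on low counts through transplanted libraries alone, as the cultured ones were at 0, and with only HFs and HFc or only KFs and KFc fitted none passed it. The calls are therefore given as counts and not as support. In heart fibroblasts 5 of 6 members passed the test as higher (edgeR quasi-likelihood test, Benjamini-Hochberg adjusted over 16577 genes, adjusted p under 0.05 and log2 fold change above 1), where 18.3% of all genes tested were called higher. Adjusted p-values were 0.00563 for Hba-a1, 0.00914 for Hba-a2, 0.00875 for Hbb-bs, 0.0101 for Hbb-bt and 0.00441 for Alas2. Slc4a1 was not called (adjusted p = 0.0717), and passed without HFs 2 (edgeR adjusted p = 0.0487) or without KFs 3 (0.0374). The other 5 calls held in each fit that left out 1 library. All fitted log2 differences against an empty group, here 6.54 to 11.09 with a median of 9.28 beside 0.05 over all genes, depend on the prior count and are no measured size. Despite the calls, only 2 members, Hba-a1 and Alas2, had every HFs library above every HFc library, beside 33.3% of all genes, because HFs 2 was empty for the rest. HFs 2 held 2 counts of Hba-a1 and 1 of Alas2, so at the floor of 3 counts per cultured library 0 members were separated.

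In tail fibroblasts 5 of 6 members were called higher, beside 11% of all genes, with edgeR adjusted p-values from 0.0310 for Hba-a1 and Alas2 to 0.0460 for Hbb-bs. Slc4a1 was not called (edgeR adjusted p = 0.0875). All 6 members had every TFs library above every TFc library, a pattern shown by 29.3% of all genes tested, and 5 members lay above the floor of 3 counts per cultured library, Slc4a1 with 1 count in TFs 2 being the exception. The number of calls rested on single libraries: it was 6 without KFs 3, 3 without HFs 3, KFs 2 or TFs 2, 2 without HFs 1, 1 without TFs 1, and 0 without TFs 3 or any of the 3 TFc libraries.

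In kidney fibroblasts 1 of 6 members was called, Hba-a1 (edgeR adjusted p = 0.0459), beside 14.7% of all genes called higher. The other 5 lay between 0.0516 and 0.0589 and all 6 had an unadjusted p under 0.05. Hbb-bt and Alas2 were the 2 members with every KFs library above every KFc library, beside 26.2% of all genes, but KFs 3 held only 1 and 2 counts of them, and at the floor of 3 counts 0 members were separated. Without KFs 3, the library that stood apart, all 6 were called and the mean hemoglobin sum was 4.92 CPM. The count was also 6 without HFs 2 and with DESeq2, and it was 0 without HFs 1, KFs 1, KFs 2, any KFc library or any TFs library. Without HFs 3 it remained 1, with Slc4a1 called in place of Hba-a1.

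Between organs after transplantation no member was called by edgeR in any of the 3 comparisons, against 33.2% of all genes for HFs versus KFs, 23.1% for HFs versus TFs and 29.1% for KFs versus TFs (either direction). The median log2 difference of the members was 2.91 for HFs over KFs and 2.04 for HFs over TFs, while over all genes it was -0.04 and -0.03. For KFs over TFs it was -0.79, beside 0.03 over all genes. Without KFs 3 the medians were 2.38 for HFs over KFs and -0.25 for KFs over TFs. Unadjusted p-values under 0.05 were found for 1 member, Alas2 in HFs versus KFs (log2 difference 2.95 ± 1.19, SE, edgeR adjusted p = 0.0875), and for none in the other 2 comparisons. DESeq2 called no member either and gave the same numbers of unadjusted p-values under 0.05. Slc4a1 stood apart with log2 differences of -0.35 for HFs over KFs (-0.91 without KFs 3) and -0.04 for HFs over TFs. Without HFs 2 the comparison of HFs with KFs called 4 members, Hba-a1, Hba-a2, Hbb-bs and Alas2, at edgeR adjusted p-values of 0.0366, 0.0462, 0.0463 and 0.0194, with the hemoglobin mean of HFs at 38.7 CPM. The 3 cultured groups were all at 0, so comparisons among them and the differences between organ responses gave no usable estimate for these genes.

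While the hemoglobin level varied widely between libraries, its makeup varied less. Across the 7 libraries with both chains the hemoglobin sum ran from 2.45 to 40.0 CPM, a 16.3-fold range. The ratio of alpha to beta counts ran from 1.40 to 1.86, with a mean of 1.65 ± 0.181 (SD, n = 7). Alpha counts made up 64.0% of hemoglobin counts in HFs 1 (95% exact Clopper-Pearson interval 60.03 to 67.9) and 64.8% in HFs 3 (61.8 to 67.7). They made up 60% in KFs 1 (52.3 to 67.3), 58.2% in KFs 2 (47.4 to 68.5), 61.2% in TFs 1 (52.3 to 69.7), 61.1% in TFs 2 (46.9 to 74.1) and 65.0% in TFs 3 (57.6 to 71.9). The intervals of all 7 libraries overlapped, which is no test of equal chain balance, and none was run. Within the alpha chain Hba-a2 took 51.5% to 73.4% of the counts, and within the beta chain Hbb-bs took 68.0% to 85.1%. Intervals again overlapped among all 7 libraries. For Hbb-bs those of HFs 1 (79.55 to 89.54) and TFs 1 (53.3 to 80.48) did so only narrowly.

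**Figure D2:**
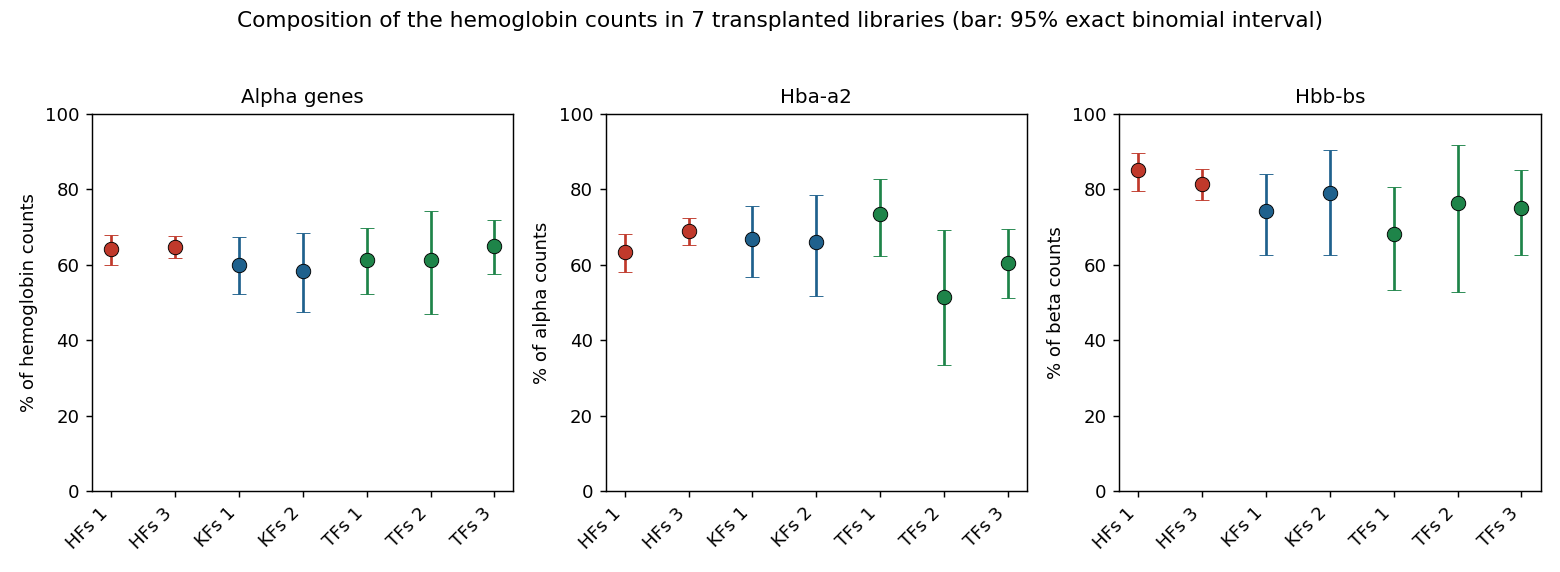
Share of alpha genes among hemoglobin counts, of Hba-a2 among alpha counts and of Hbb-bs among beta counts (vertical axes, percent) in the 7 transplanted libraries with over 3 counts of both chains, bars for the 95% exact binomial interval. Alpha shares lie between 58.2% and 65.0% and their intervals overlap.

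The share of Alas2 beside hemoglobin varied less than that of Slc4a1. Of the counts of Alas2 and hemoglobin together, Alas2 made up 6.74% in HFs 1 and 5.81% in HFs 3, 5.91% and 4.21% in KFs 1 and 2, and 4.44%, 6.90% and 8.96% in TFs 1, 2 and 3. This is a 2.13-fold range, and the 95% exact binomial intervals of the 7 libraries overlapped. The corresponding share of Slc4a1 was 0.168% in HFs 1 (0.00425 to 0.931), 3.04% in HFs 3 (2.10 to 4.24), 15.9% in KFs 1 (11.2 to 21.6) and 12.5% in KFs 2 (6.83 to 20.4). In TFs 1, 2 and 3 it was 5.15% (2.09 to 10.3), 1.82% (0.0460 to 9.72) and 11.2% (7.21 to 16.3). HFs 1 therefore lay below HFs 3, although both held similar hemoglobin levels, and the interval of HFs 3 lay below those of both KFs libraries.
Over the 9 transplanted libraries, log2(CPM + 1) of the 4 hemoglobin genes and Alas2 correlated pairwise with Pearson's r of 0.95 to 1.00, and Slc4a1 with each of them at 0.36 to 0.52. Spearman's rho was 0.88 to 0.98 among the first 5 and 0.63 to 0.78 for Slc4a1. These values describe 9 libraries, of which HFs 1 and HFs 3 lie far from the rest, and the copies share reads.

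**Figure D3:**
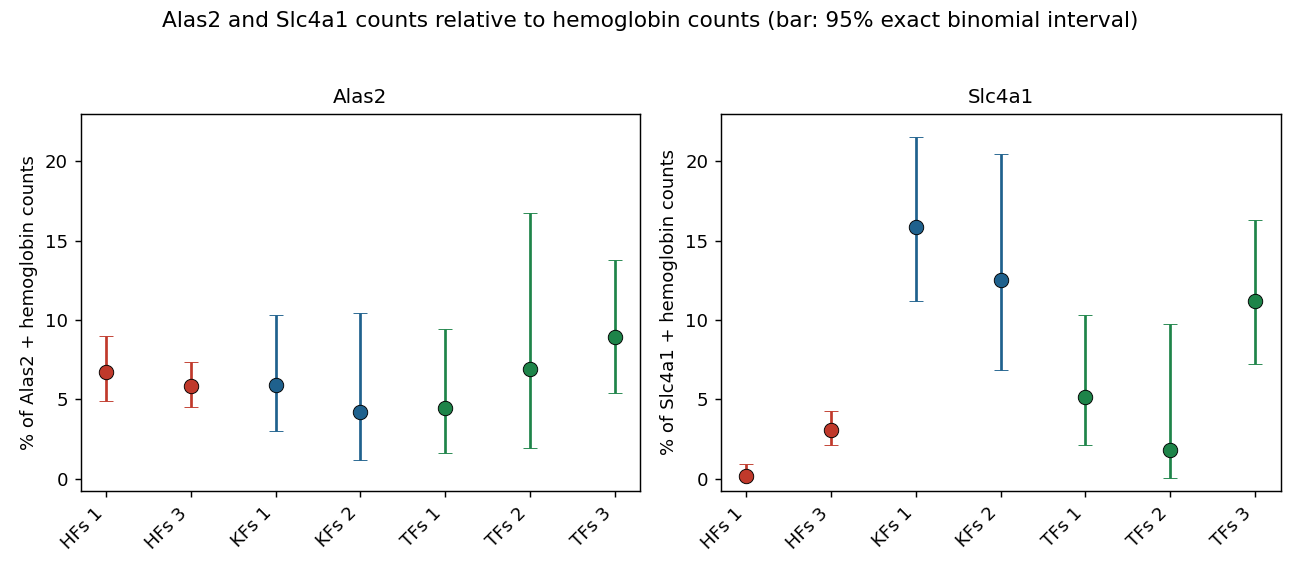
Counts of Alas2 (left) and Slc4a1 (right) as percent of their own plus the hemoglobin counts, in the same 7 libraries, bars for the 95% exact binomial interval. Alas2 lies between 4.21% and 8.96% with overlapping intervals, whereas Slc4a1 ranges from 0.168% in HFs 1 to 15.9% in KFs 1.

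Markers of other cell types were set beside these values. HFs 2, nearly empty of hemoglobin, had the highest sum of the 12 proximal tubule markers, 1239 CPM against 60.1 to 328 CPM in the other transplanted libraries. KFs 3, the other nearly empty library, had 92.8 CPM of these markers. The cultured KFc libraries had 95.7 to 102 CPM, with a mean of 96.5 CPM for Lrp2 alone. Among the transplanted libraries Lrp2, Cubn and Pck1 were lowest in KFs 2. All other markers of the 12 were lowest in KFs 3, with Slc5a12 at 0.762 CPM and Fbp1 at 0.842 CPM. The leukocyte marker sum of KFs 3 was 10.1 CPM, against 28.5 and 39.3 CPM in KFs 1 and 2. Its macrophage marker sum was 38.1 CPM, against 145 and 107 CPM, and both were the lowest of its group. HFs 2 instead had the highest macrophage sum of the 9, 164 CPM, with 26.0 CPM of leukocyte markers. All 3 TFs libraries, with hemoglobin, were as low as KFs 3, at 37.0 to 46.8 CPM of macrophage and 9.54 to 12.3 CPM of leukocyte markers. Platelet markers summed to 4.61 CPM in KFs 3 against 7.87 to 14.8 CPM in the other 8. Endothelial markers ran from 82.0 to 130 CPM in the 9 libraries and were at 113 CPM in HFs 2 and 124 CPM in KFs 3. In the cultured libraries their sum ran from 51.9 to 79.2 CPM. Single genes differed from the sum. Pecam1, Cdh5, Kdr, Tie1 and Emcn were lowest of the 9 in KFs 3, with Cdh5 at 0.361 CPM and Kdr at 0.561 CPM. Flt1, Tek, Egfl7, Vwf and Esam were lowest in other transplanted libraries.
Neutrophil markers summed to 12.5 to 34.2 CPM in the transplanted and 5.30 to 9.29 CPM in the cultured libraries. Cxcr2 made up most of the sum in many libraries, with 11.0 to 15.4 CPM against 5.07 to 9.26 CPM, and Mmp8 reached 15.8 CPM. Camp reached 3.92 CPM in transplanted and 0.474 CPM in cultured libraries, and S100a9 reached 1.31 CPM in transplanted ones. Ltf went the other way, with at most 0.0535 CPM in transplanted and 0.541 CPM in cultured libraries. Ly6g was at 0 in all, and S100a8, Ngp and Retnlg stayed under 0.5 CPM. S100a8, S100a9, Ngp and Retnlg had 0 counts in every cultured library. In KFs 3, 1 of the 9 markers had more than 3 counts. The 7 intercalated cell markers found in the table, a list chosen after the values of Slc4a1 were seen, summed to 1.92, 5.64 and 12.3 CPM in HFs 1, 2 and 3, 4.77, 1.67 and 1.16 CPM in KFs and 3.64, 1.50 and 5.13 CPM in TFs. Beside these sums, HFs 2 held 0 counts of Slc4a1 and KFs 1 held 33. In HFs 3 a single gene, Atp6v0d2, gave 8.24 of the 12.3 CPM. In the cultured libraries the same list summed to 0.219 to 1.08 CPM. The part of any of these cells in the levels of Slc4a1 or hemoglobin was not tested.

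**Figure D4:**
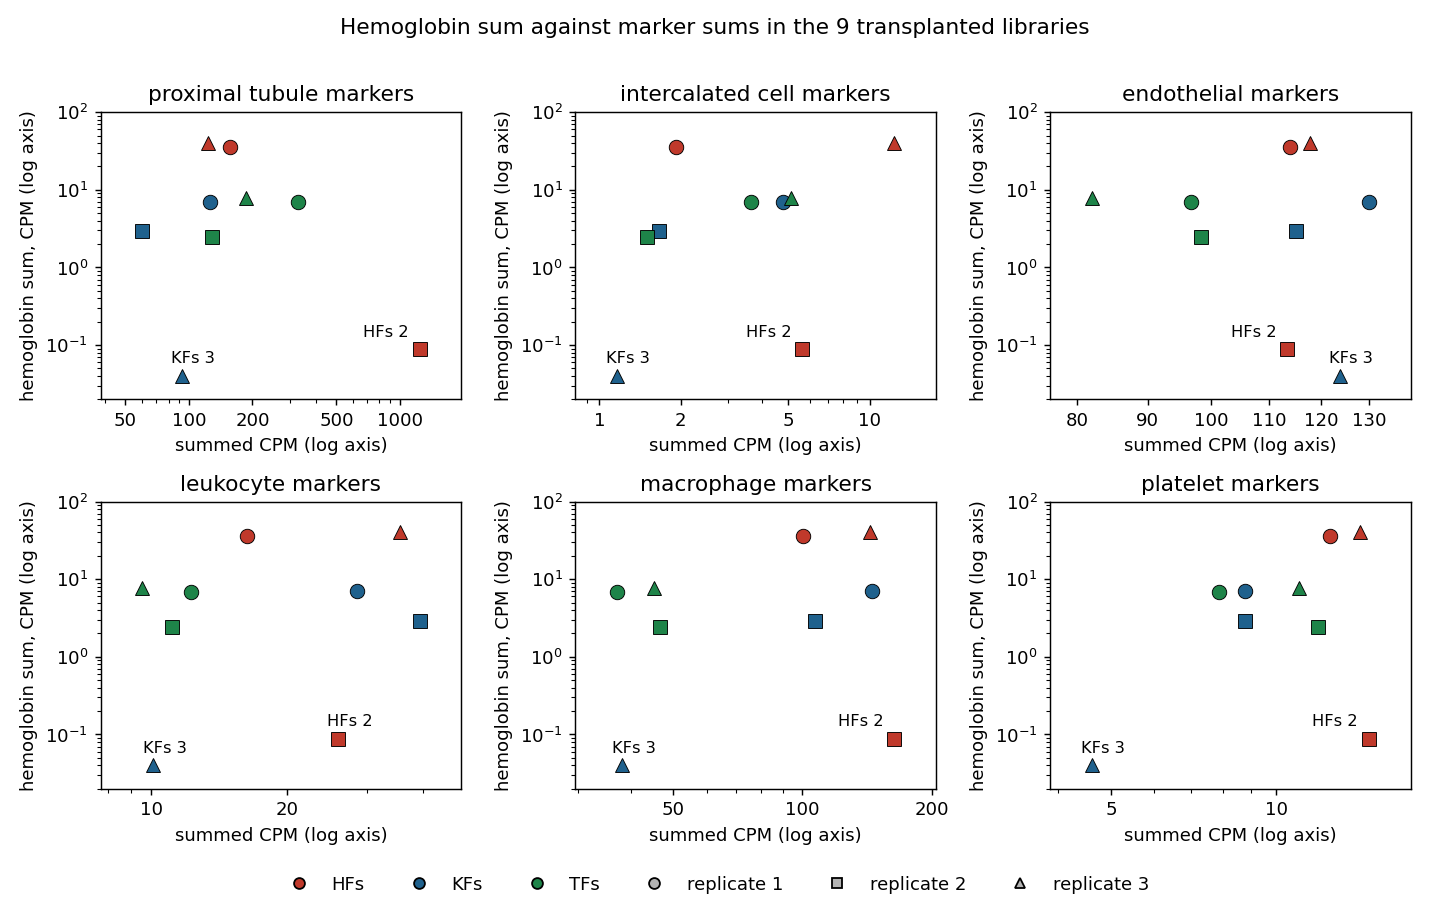
Hemoglobin sum (vertical, CPM, log axis) against the summed CPM of 6 marker lists (horizontal, log axes) in the 9 transplanted libraries, coloured by group and shaped by replicate. HFs 2 stands at 0.0881 CPM of hemoglobin with the highest proximal tubule sum, and KFs 3 at 0.0401 CPM with the lowest macrophage sum of its group.

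The globin and transcription factor genes that accompany hemoglobin during red cell formation were mostly at or near 0. Of the 6 embryonic and theta globins (Hba-x, Hbb-y, Hbb-bh1, Hbb-bh2, Hbq1a, Hbq1b), 1 count of Hbq1b in 1 transplanted library was all that was read. Of 8 erythroid transcription factors 3 passed the filter on low counts. Gata1, Klf1, Tal1 and Nfe2 had at most 9 counts in a transplanted library and at most 11 in a cultured one, and Gfi1b had 0 in all. Zfpm1, among the 3 tested, stood at 7.49 to 56.7 CPM in transplanted and 11.3 to 75.7 CPM in cultured libraries. Zfpm1 and Lmo2 had more than 3 counts in all 18 libraries. Lmo2, a partner of GATA and TAL factors that blood vessels also use, was the only one of the 3 called. It was lower in KFs (log2 difference -2.28 ± 0.46, SE, edgeR adjusted p = 0.000830), where 7.99% of all genes were called lower. Without KFs 3 Lmo2 was also lower (-1.94). Without HFs 2 Bcl11a, a repressor of fetal globin genes, was called higher in HFs (2.29). The leukocyte marker sum also fell in kidney, from 87.1 to 93.1 CPM in KFc to 10.1 to 39.3 CPM in KFs. Of its 7 genes 3 were called lower and 1 higher, and Laptm5 alone fell from a mean of 46.0 to 4.76 CPM. Macrophage markers fell from 462 to 500 CPM to 38.1 to 145 CPM, with 7 of 9 called lower. The part of these cells in the level of Lmo2 was not tested.
Hemgn and Trim58, made late in erythroid maturation, had 0 counts in all 18 libraries, as did the blood group gene Kel. Rhag, of the Rh complex of the red cell membrane, had at most 2 counts in a transplanted library and 0 in the cultured ones. The hemoglobin chaperone gene Ahsp was not analysed here.

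Of the 17 red cell membrane and skeleton genes 10 were tested, and they moved in both directions. In HFs 2 were called higher and 2 lower, in KFs 1 and 2, and in TFs 2 and 1, beside backgrounds of 18.3% and 9.33%, 14.7% and 7.99%, and 11% and 5.53%. Without HFs 2 the HFs counts were 2 and 1, as Sptb was no longer called lower, and without KFs 3 the KFs counts were 1 and 3, with Sptb called lower. Their median log2 differences were 0.17, 0.00 and -0.20, beside 0.05, 0.09 and 0.00 over all genes. Add2, beta adducin, rose in KFs (0.554 ± 0.242 to 10.5 ± 7.07 CPM, log2 difference 4.23, and 3.63 without KFs 3) and TFs (2.27). Xk, the Kell-associated membrane protein, fell in KFs (-1.79) and TFs (-1.32), and Dmtn, the actin-bundling dematin, rose in TFs (1.13).

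Of 14 genes of erythroid maturation 13 were in the table and 9 were tested, with 4 called higher and 2 lower in HFs, 0 and 1 in KFs and 1 and 1 in TFs, beside 18.3% and 9.33%, 14.7% and 7.99%, and 11% and 5.53% of all genes. Without HFs 2 the HFs counts were 3 and 2, Pklr being lost, and without KFs 3 the KFs counts were 0 and 2. Bcl11a, Zfpm1, Sptb and Pklr were named after their values were seen. Medians were 0.66, 0.48 and 0.27 on the log2 scale, beside 0.05, 0.09 and 0.00 over all genes. Bpgm, which makes the red cell metabolite 2,3-bisphosphoglycerate, fell in all 3 organs, from 15.5 ± 0.590 to 7.45 ± 0.949 CPM in heart, from 21.6 ± 1.13 to 10.3 ± 1.41 CPM in kidney and from 32.8 ± 1.27 to 12.7 ± 1.85 CPM in tail (log2 differences -1.06, -1.07 and -1.37). Tfrc, the transferrin receptor, fell in HFs (-1.73) and stood at -0.73 in KFs and -0.56 in TFs. Car2, a carbonic anhydrase of red cells and also of kidney tubules, rose from 0 to 5.50 ± 2.87 CPM in HFs and from 0.561 ± 0.258 to 3.87 ± 0.930 CPM in TFs. In kidney cells it stood at 7.51 ± 0.920 CPM in culture and 4.10 ± 1.60 CPM after transplantation (edgeR adjusted p = 0.0983), and it was called lower without KFs 3 (log2 difference -1.27, edgeR adjusted p = 0.0237). Tent5c, a poly(A) polymerase, rose in HFs (1.56).

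The 11 heme synthesis genes other than Alas2 were all tested, and none was called higher in any organ. In HFs 1 was called lower, Abcb10, a mitochondrial transporter (log2 difference -1.77 ± 0.13, SE, edgeR adjusted p = 3.87e-08), and in KFs 1, Alas1 (-1.44 ± 0.11, SE, edgeR adjusted p = 7.82e-08). No gene of the list was called in TFs. Of all genes, 18.3%, 14.7% and 11% were called higher in heart, kidney and tail, and 9.33%, 7.99% and 5.53% lower. Alas1 fell from 52.7 ± 1.76 to 19.4 ± 2.98 CPM in kidney cells. In heart it stood at 46.6 ± 0.640 and 28.4 ± 3.17 CPM and in tail at 50.8 ± 3.51 and 25.6 ± 1.64 CPM, with log2 differences of -0.71 and -0.99 that did not reach the limit of 1. Alas2 itself was not called in KFs (edgeR adjusted p = 0.0531). The medians of the list were -0.62, -0.25 and -0.49 in heart, kidney and tail, beside 0.05, 0.09 and 0.00 over all genes.

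Among the 13 genes that handle free hemoglobin and heme, 4 were called higher and 0 lower in HFs, 1 and 4 in KFs and 2 and 2 in TFs, beside the same backgrounds of 18.3% and 9.33%, 14.7% and 7.99%, and 11% and 5.53% of all genes. Hp, haptoglobin, which binds free hemoglobin, rose in all 3 organs, from 0.413 ± 0.125 to 344 ± 238 CPM in heart, from 1.37 ± 0.852 to 54.6 ± 44.9 CPM in kidney and from 0.343 ± 0.101 to 55.9 ± 29.8 CPM in tail. Its log2 differences were 9.72 ± 0.98, 5.29 ± 0.80 and 7.37 ± 0.96 (SE), with edgeR adjusted p-values of 9.57e-07, 6.28e-05 and 2.78e-05. Hmox1, the inducible heme oxygenase that breaks heme down, fell in KFs (170 ± 7.93 to 54.3 ± 3.48 CPM) and TFs (209 ± 7.59 to 51.1 ± 12.6 CPM) and stood at 50.5 ± 4.24 and 44.8 ± 6.60 CPM in HFc and HFs. Macrophage markers fell in the same organs, in tail from 187 to 213 CPM in TFc to 37.0 to 46.8 CPM in TFs with 7 of 9 called lower, and stood at 102 to 120 CPM in HFc and 100.4 to 164 CPM in HFs with 0 called lower. Their part in the level of Hmox1 was not tested. Slc48a1, a heme transporter of the lysosome, fell in KFs (-2.38) and TFs (-1.13) and stood at -0.92 in HFs. Fth1, ferritin heavy chain, rose in HFs (1.29). The list medians were -0.02, -0.51 and 0.08.

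Of the 4 globins outside the blood 2 were tested, and 1 was called in 1 organ, higher in HFs beside 18.3% of all genes. Cygb, cytoglobin, a globin of fibroblasts and stellate cells, rose in HFs from 8.12 ± 3.00 CPM to 62.8, 98.7 and 81.1 CPM in HFs 1, 2 and 3 (log2 difference 3.32 ± 0.48, SE, edgeR adjusted p = 3.28e-05). It stood at 8.13 ± 0.711 and 11.4 ± 10.6 CPM in KFc and KFs and at 22.9 ± 0.648 and 33.4 ± 4.45 CPM in TFc and TFs, with no call. Adgb, androglobin, was at 0.87, -0.75 and 0.92 on the log2 scale in heart, kidney and tail with no call, while Mb had at most 2 counts and Ngb at most 9 in any library.

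**Figure D5:**
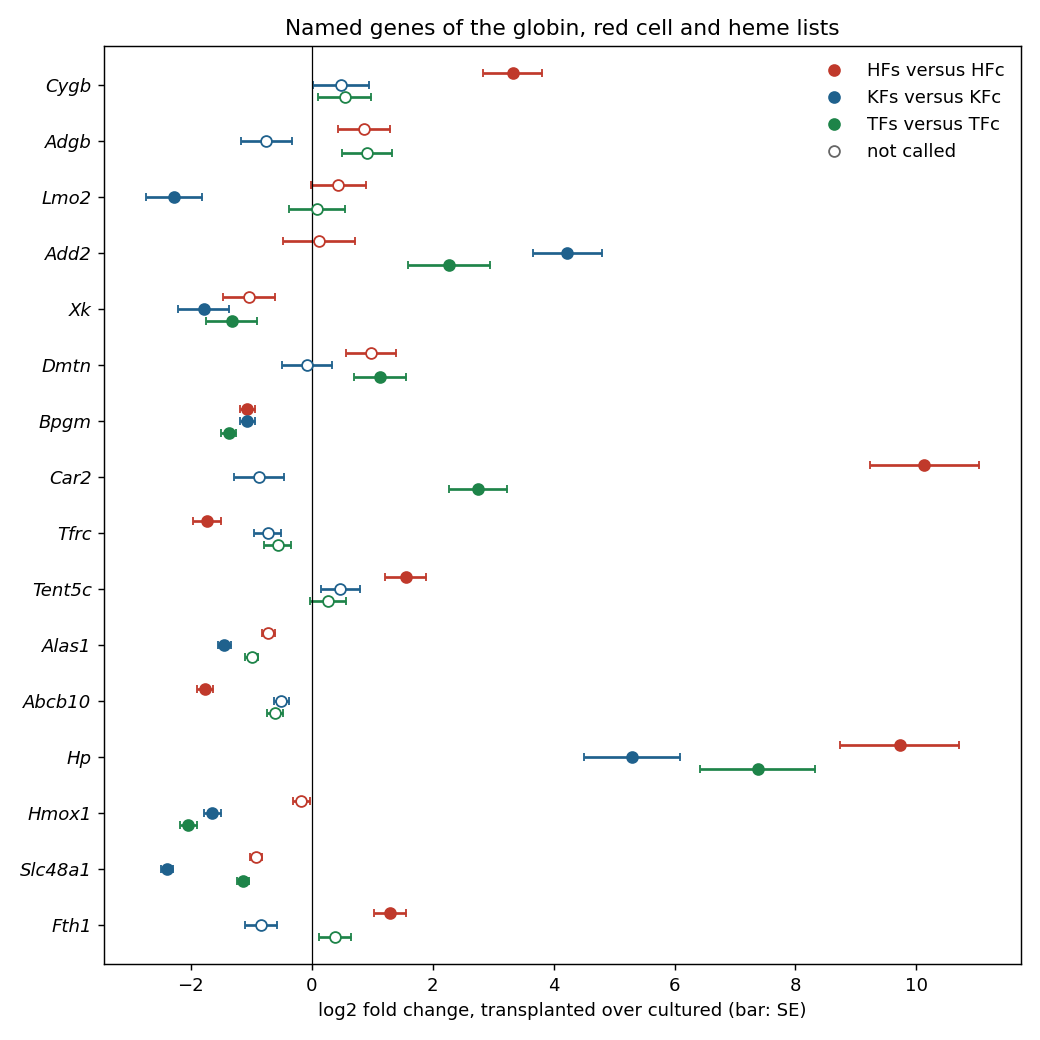
Log2 difference between transplanted and cultured libraries (horizontal axis, bars for the SE) of 16 genes named from the globin, red cell and heme lists, with filled symbols for calls and open ones for none, coloured by organ. Hp lies to the right of 0 in all 3 organs, Bpgm to the left in all 3, and Cygb and Car2 reach 3.32 and 10.13 in heart.

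The genes whose log2(CPM + 1) was most like that of the hemoglobin sum over the 9 transplanted libraries were, of 16569 ranked, C230062I16Rik (Pearson's r = 0.93, Spearman's rho = 0.95), AU021092 (0.89 and 0.85), 2210408I21Rik (0.86 and 0.72), Vstm2a (0.86 and 0.85) and Grid2ip (0.85 and 0.78). Without HFs 2 and KFs 3, the 2 libraries farthest from the median, their r was 0.86, 0.91, 0.82, 0.78 and 0.79. These genes were low, with maxima of 1.52, 0.304, 9.99, 1.67 and 0.240 CPM, and were picked as the highest of many, so the values are descriptions of 9 points. Over all 18 libraries the 9 cultured ones lie at 0 hemoglobin, and no ranking over them is given.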

How the data were processed

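Libraries (18) came from a stranded low-input total RNA kit, read single-end over 75 bases. Per the study's methods the authors aligned reads to GRCm38 with Bowtie2 inside RSEM and deposited whole-number counts per gene, while the submitters' processing notes name mm9. Of 38924 gene identifiers 37607 were named through GENCODE M21. The 6 members and all lists were chosen with earlier results of these data known.

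Counts were tested in edgeR 4.0.16 (R 4.3.3) over all 18 libraries with 1 mean per group: filterByExpr left 16577 genes, all 6 members included, followed by TMM scaling, the quasi-likelihood test and Benjamini-Hochberg adjustment. Calls between transplanted and cultured groups needed an adjusted p under 0.05 and a log2 fold change beyond 1, others the adjusted p alone. CPM used TMM-scaled totals. SE is the log2 difference over the square root of F. From each list up to 4 genes were named, those called in most organs, ties by mean CPM, and all of a list of 4. For 2 genes of the membrane list, included in its counts, single values are not reported here. Fits were tested on simulated data, with changes in genes of higher level that had counts in both groups. That test does not cover genes with a control at 0, such as the members. Alternatives were DESeq2 1.42.0, other scalings and filters, a replicate block, fits on the compared groups, thinning, summed copies and each library left out.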

Additional observations from a re-analysis of the deposited data

Results flagged for a closer look

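The transplant responses of some named genes outside the 6 members differed between organs by the interaction contrast of edgeR, at an adjusted p under 0.05, a mark that 22.8% of all genes reached for heart against tail, 11.1% for kidney against tail and 26.2% for heart against kidney. For the members themselves this contrast gave no usable estimate, because the cultured groups were at 0. Cygb responded more strongly in heart by 2.78 on the log2 scale than in tail (adjusted p = 0.00595) and by 2.84 than in kidney (0.00482). The difference for Lmo2 was -2.36 for kidney minus tail (0.0298) and 2.71 for heart minus kidney (0.00605). Add2 differed by -4.11 for heart minus kidney (0.00181), with its highest value, 17.2 CPM, in KFs 3. Car2 differed by 7.38 for heart minus tail (0.000905), -3.62 for kidney minus tail (0.00285) and 11.0 for heart minus kidney (1.71e-05), the values with heart resting on a cultured group at 0 and on the prior count. Tfrc differed by -1.16 for heart minus tail (0.0172) and -1.0 for heart minus kidney (0.0313). Alas1 differed by 0.73 for heart minus kidney (0.00246). Abcb10 differed by -1.16 for heart minus tail (0.000328) and -1.26 for heart minus kidney (0.000178). Hp differed by 4.43 for heart minus kidney (0.0166). Hmox1 differed by 1.87 for heart minus tail (1.28e-05) and 1.47 for heart minus kidney (0.000127). Slc48a1 differed by -1.25 for kidney minus tail (6.42e-05) and 1.46 for heart minus kidney (8.88e-06). Fth1 differed by -1.23 for kidney minus tail (0.0434) and 2.13 for heart minus kidney (0.000790). The adjusted p-values are from edgeR over 16577 genes. All contrasts with kidney include KFs 3, the library that stood apart, and are not given without it.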

How the results depend on the processing

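The cultured libraries held 0 counts of the members, so every fit that tested them could only place them higher after transplantation. How many passed the threshold moved. In heart, 5 of 6 were called and 5 to 6 with 1 library left out. With a mean of at least 10 counts required, 3 of the 3 members still tested were called, and with copies summed 3 of 4. In kidney, the single call became 6 with DESeq2, 4 with scaling by library size alone, 5 without the filter, 0 after thinning to the smallest total, 2 of 4 with copies summed and 0 to 6 with 1 library left out. In tail, 5 calls became 3 with the mean filter (3 tested), 3 with only TFs and TFc fitted (3 tested), 3 after thinning, 3 of 4 with copies summed and 0 to 6 with 1 library left out. Fitted on their 2 groups alone, HFs versus HFc and KFs versus KFc gave no value, as no member passed the filter there. The organs after transplantation stayed at 0 calls apart from HFs versus KFs, at 0 to 4 with 1 library left out. The replicate numbers gave no clear sign of pairing, with residuals of same-numbered libraries correlated at -0.041 to 0.041. In kidney these ran from 0.007 to 0.041, beside a mean of -0.011 for differing numbers. Such values cannot settle whether same-numbered libraries came from the same isolation. With the replicate block the tail count was 3, the heart count 5 and the kidney count 1, Alas2 in place of Hba-a1.

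Slc4a1 had no stable direction between transplanted groups with 1 library left out, from -3.90 to 1.12 on the log2 scale for HFs versus TFs, -1.10 to 1.48 for KFs versus TFs and -4.23 to 1.06 for HFs versus KFs. The alpha to beta ratio of 1.65 became 0.763 when only Hba-a1 over Hbb-bs was taken, which leaves out the larger alpha copy, and 1.61 to 1.69 with 1 library left out. An alternative chosen after seeing the data left HFs 2 out of heart and KFs 3 out of kidney. Called transcription factors in heart went from 0 to 1 higher. Membrane genes went from 2 to 1 lower in heart and 2 to 3 lower in kidney. Maturation genes went from 4 to 3 higher in heart and 1 to 2 lower in kidney. Neutrophil markers called higher in kidney went from 1 of 3 tested to 5 of 5 tested. Platelet markers went from 1 to 0 lower and macrophage markers from 1 to 0 higher in heart. Endothelial markers went from 1 to 0 lower in kidney. The other list counts stayed within 1.5 times. Group means moved by less than 1 SD under each alternative, but the SDs are near or above many means: with 1 library left out the hemoglobin sum ran from 18.2 to 38.7 CPM in HFs, 1.48 to 4.92 in KFs (lowest without KFs 1) and 4.66 to 7.31 in TFs, Alas2 from 1.29 to 2.58, 0.104 to 0.282 and 0.250 to 0.541, and Slc4a1 from 0.0305 (without HFs 3) to 0.675, 0.209 (without KFs 1) to 0.862 and 0.209 (without TFs 3) to 0.673. Few counts also limit the members: 3 counts correspond to 0.089 to 0.180 CPM. The cause of these shifts was not tested.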
